A study of Mus musculus with 12 samples.

Results

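Transcript levels of the proteasome subunit genes were described in the frontal cortex of wild-type, Grin1 knockdown and Grin1 rescue mice. Members were the genes whose symbol begins with Psm, a letter from a to g and a number, and which have at least 1 tested model in the authors' tables. This rule gave 47 genes of the 15201 gene symbols tested in any table, and all 47 were tested in all 3 tables. By known role 17 belong to the core particle, 17 to the regulatory particle, and 13 lie outside both. The 13 include Psmc3ip, a meiotic recombination factor that shares the letters of the symbol and is no subunit, so 46 genes are proteasome genes proper. Another 2 genes of the same symbol families had no tested model: Psma8, an alpha subunit of the testis, was listed at 0.13 to 0.17 FPKM, and Psmb11, a catalytic subunit of the thymus, at 0.08 to 0.10 FPKM.

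The 12 animals were male F1 hybrids of the strains C57Bl/6 and 129/SvlmJ at 14 weeks of age, 4 per group. Wild type is WT in labels and tables, knockdown is GluN1 in the labels and NR1 in the tables, and rescue is GluN1Cre or NR1Cre. GluN1, also written NR1, is the obligatory subunit of NMDA-type glutamate receptors and the product of Grin1. All animals, wild type included, received tamoxifen, which was started at 10 weeks (6 mg through a gavage, then chow that held about 14 mg), so no group shows the cortex without the drug. Only the rescue group carries Cre by its name, and effects of Cre and of restored Grin1 cannot be told apart. The promoter that drives Cre and the cells it acts in are not given in the sources used here.

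The authors deposited 3 tables, one per pair of groups, with 1 FPKM value per group (fragments counted per unit of transcript length and of library size). The tables hold no value per animal and no read count, so the spread between animals and the depth of each library are unknown, and every FPKM below is the authors' value for a group. The comparisons are given in the order knockdown over wild type, rescue over knockdown, rescue over wild type, and Cuffdiff tested 18417, 18430 and 18429 gene models in them. A model was called changed at p under 0.05 and q under 0.10, the threshold of the series' design text. Grin1 itself stood at 138 FPKM in wild type and 56.7 FPKM in knockdown, 41.0% of wild type (in the authors' deposited table q = 0.00456, at a log2 fold of -1.28). It stood at 65.7 FPKM in knockdown and 86.7 FPKM in rescue in the table of that pair (in the authors' deposited table q = 0.038, at a log2 fold of 0.40). In the remaining table it stood at 138 FPKM in wild type and 78.0 FPKM in rescue, 56.5% of wild type (in the authors' deposited table q = 0.0098, at a log2 fold of -0.82).

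The proteasome degrades proteins that carry ubiquitin chains. Its core particle is a barrel of stacked rings: outer rings of alpha subunits gate the entry, and inner rings of beta subunits carry the cutting sites. The regulatory particle caps the barrel: its base of ATPases unfolds the substrate and threads it in, and its lid removes the ubiquitin. In neurons the proteasome acts in synapses as well as in the cell body, and protein turnover by it is known to bear on synaptic plasticity. Subunit genes are known to be controlled together by the transcription factor Nfe2l1, which binds antioxidant response elements, while interferon signalling exchanges the cutting beta subunits for inducible ones.

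Those textbook elements were looked for in promoters, which shows how the letters are spread rather than where a factor binds. The search covered the members and the 2 genes without a tested model, Psma8 and Psmb11. RefSeq promoters on GRCm38.p6 were found for 41 of these 49 genes, Psmb11 among them, 44 promoters in all. In the 250 bases before the start site, on both strands, TGACNNNGC (the core of an antioxidant response element) occurred in 5 of these 44 promoters, 11.4%, against 10.2% of all 32851 promoters. The 5 genes were Psmb5, Psmb6, Psmc6, Psmd12 and Psmd9. TTCNNNGAA (the letters of a gamma-activated site) occurred in 2 of 44, 4.55%, against 7.02% of all, namely at Psmb8 and Psmg1. The interferon-stimulated response element (GAAA, any 2 bases, GAAA) occurred in 3 of 44, 6.82%, against 2.98% of all. The genes were Psmb3, Psmd4 and Psmd9, none of them an inducible subunit. The CCAAT box (CCAAT or ATTGG) occurred in 15 of 44, 34.1%, against 33.8%, and Psmb11 was among those 15 genes. The sequences of 3 catalytic genes are shown, Psmb5 and Psmb6 with the antioxidant response letters and Psmb8 with those of a gamma-activated site. They are written 5′ to 3′ on the strand of the gene, on GRCm38.p6, with the matched letters in capitals. For Psmb5 the stretch is chr14:54618023-54618115 (minus strand), for Psmb6 chr11:70525237-70525356 (plus strand), and for Psmb8 a site of 30 bases at chr17:34198088-34198117 (plus strand) that GENCODE places in an exon of a longer transcript. The match begins 47 bases before the RefSeq start site of Psmb5, 9 bases before that of Psmb6 and 97 bases before that of Psmb8.
Psmb5: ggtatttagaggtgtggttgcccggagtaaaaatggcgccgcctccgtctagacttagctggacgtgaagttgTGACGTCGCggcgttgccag
Psmb6: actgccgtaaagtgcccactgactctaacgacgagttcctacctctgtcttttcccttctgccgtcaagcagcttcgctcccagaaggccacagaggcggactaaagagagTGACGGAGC
Psmb8: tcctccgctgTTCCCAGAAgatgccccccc

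None of the tested proteasome models was called in any comparison by Cuffdiff, and none had an unadjusted p under 0.05: 0 of 47, 0 of 48 and 0 of 47 models in the 3 comparisons. Among all tested models 2.52%, 0.689% and 0.841% were called, and 7.91%, 4.19% and 4.32% had an unadjusted p under 0.05. At q under 0.05 it was 1.94%, 0.559% and 0.662% of all models and 0 members. At shares this low, 0 calls among 47 models sets the members little apart from the rest. The members' smallest p was 0.107 in knockdown over wild type, at Psmb7 (q = 0.855 in the authors' deposited table). In rescue over knockdown it was 0.280, at a model that merges Psma1 with the neighbouring coat protein gene Copb1 (q = 0.9999 in the authors' deposited table). In rescue over wild type it was 0.112, at Psmb9 (q = 0.9999 in the authors' deposited table).

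**Figure D1:**
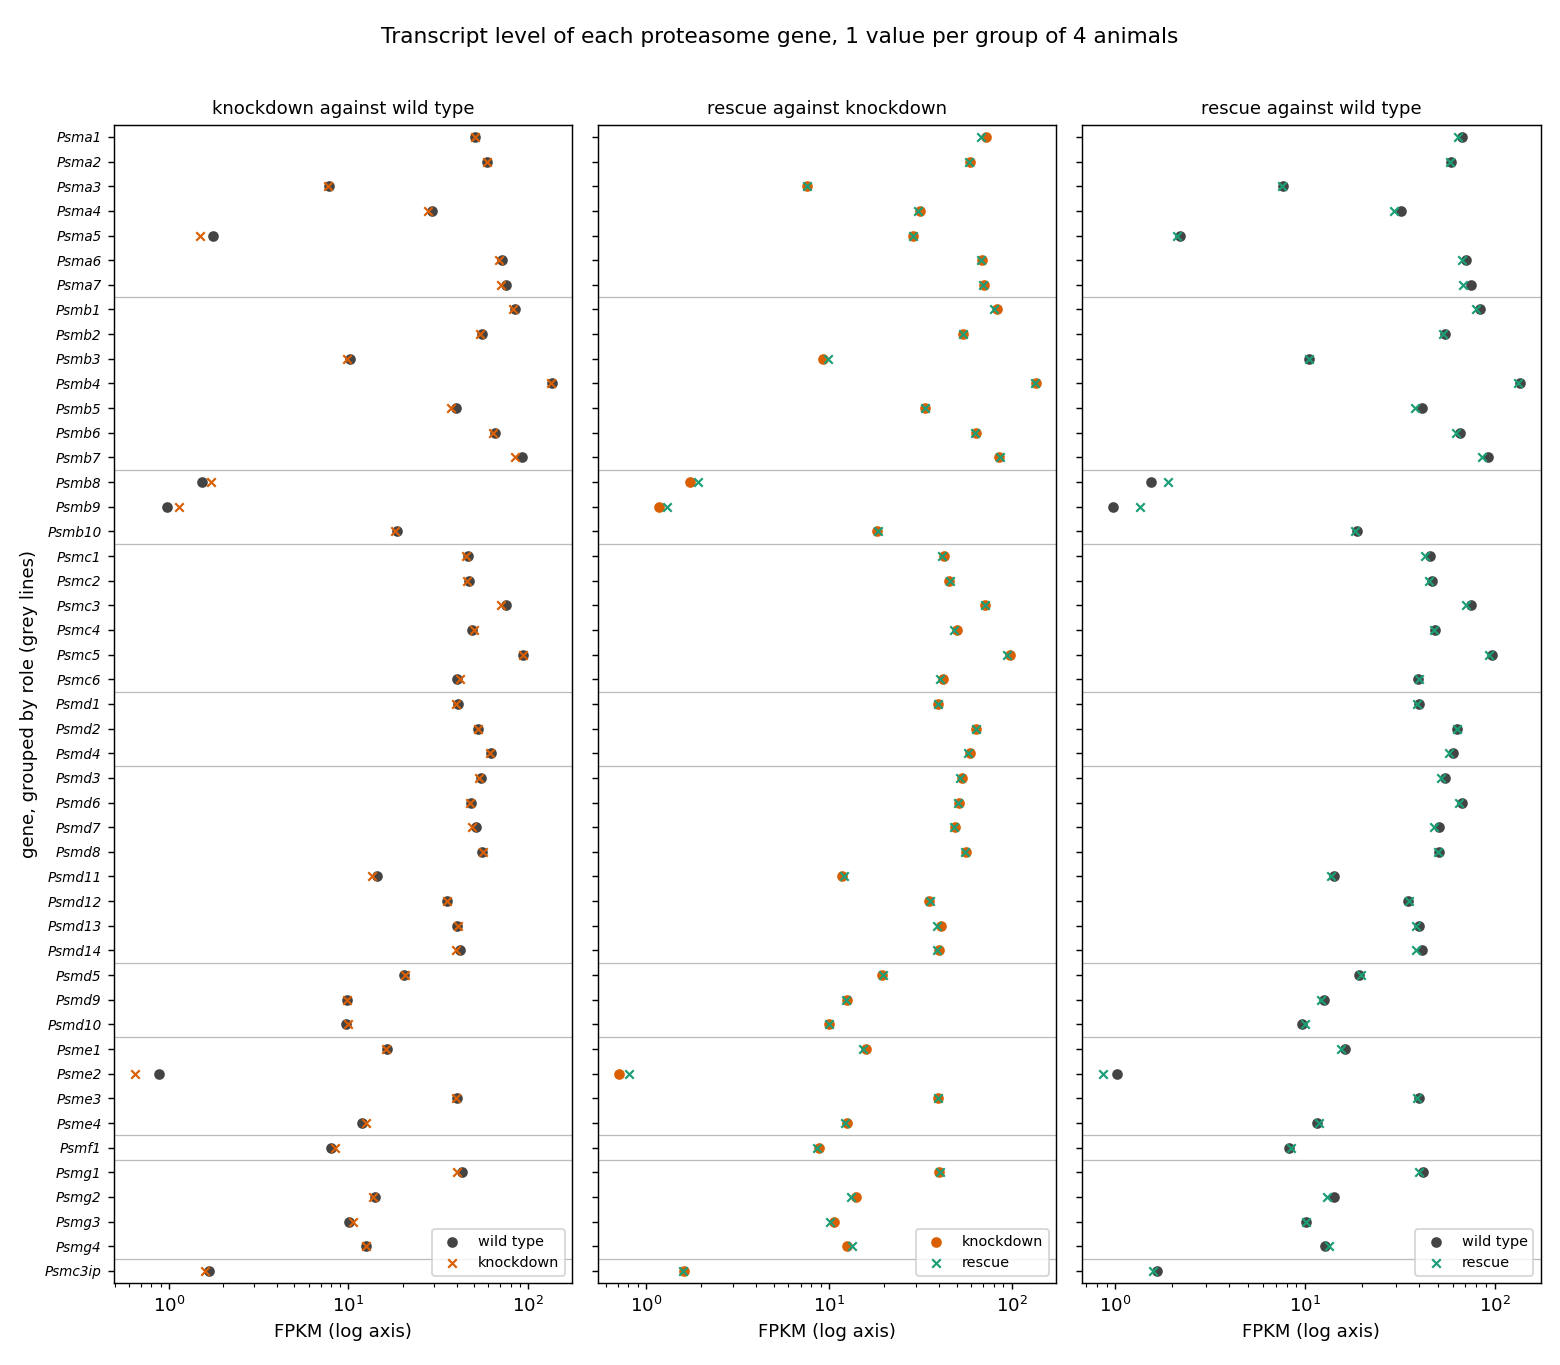
FPKM of each of the 47 genes on a log axis, in 1 panel per table and with 1 marker per group of 4 animals (authors' values, no error available); grey lines part the roles, from the alpha ring at the top to Psmc3ip at the bottom. Markers of both groups nearly coincide for most genes, while levels between genes reach from under 1 FPKM for Psme2 to 135 FPKM for Psmb4.

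As a set the levels lay close together between groups. The middle 50% of the members' log2 folds spanned 0.07, 0.04 and 0.06 in the 3 comparisons. Over all tested models of at least 1 FPKM, which 46 of the 47 genes reach in every table, it spanned 0.13, 0.10 and 0.11. The members were also the more abundant, with a median level of 40.5 FPKM against 9.83 FPKM for those models in the first comparison. The median fold of the core particle was -0.05, -0.00 and -0.04 in the 3 comparisons, and that of the regulatory particle -0.02, -0.02 and -0.05, beside -0.00, -0.01 and -0.01 for all tested models. Genes outside the particles had medians of 0.00, -0.01 and -0.04. In bulk tissue, fewer cells of a type and less RNA per cell cannot be told apart.

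The tables give no error of a fold, so one was derived from the deposited p-value: the standard error that gives that p under a normal distribution. Its median over the members was 0.09 on the log2 scale in each comparison, and the resulting 95% intervals include 0 for every tested member model, as they must with no p under 0.05. In knockdown over wild type the intervals of the 17 regulatory particle genes ran from -0.25 at the lowest to 0.23 at the highest. In rescue over wild type they ran from -0.30 to 0.22. In rescue over knockdown the 18 models ran from -0.56 to 0.63, both bounds set by the lesser model of Psmd6, which lies under 2 FPKM. In each comparison 41 member models had an interval that lay within 0.5 of 0 on the log2 scale, so larger differences fall outside their intervals. The deposited test statistic was 0.497, 0.498 and 0.496 of the normal deviate of the p in the 3 tables (medians over members), and in the first of them intervals built from it would be 2.01 times as wide at the median.

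**Figure D2:**
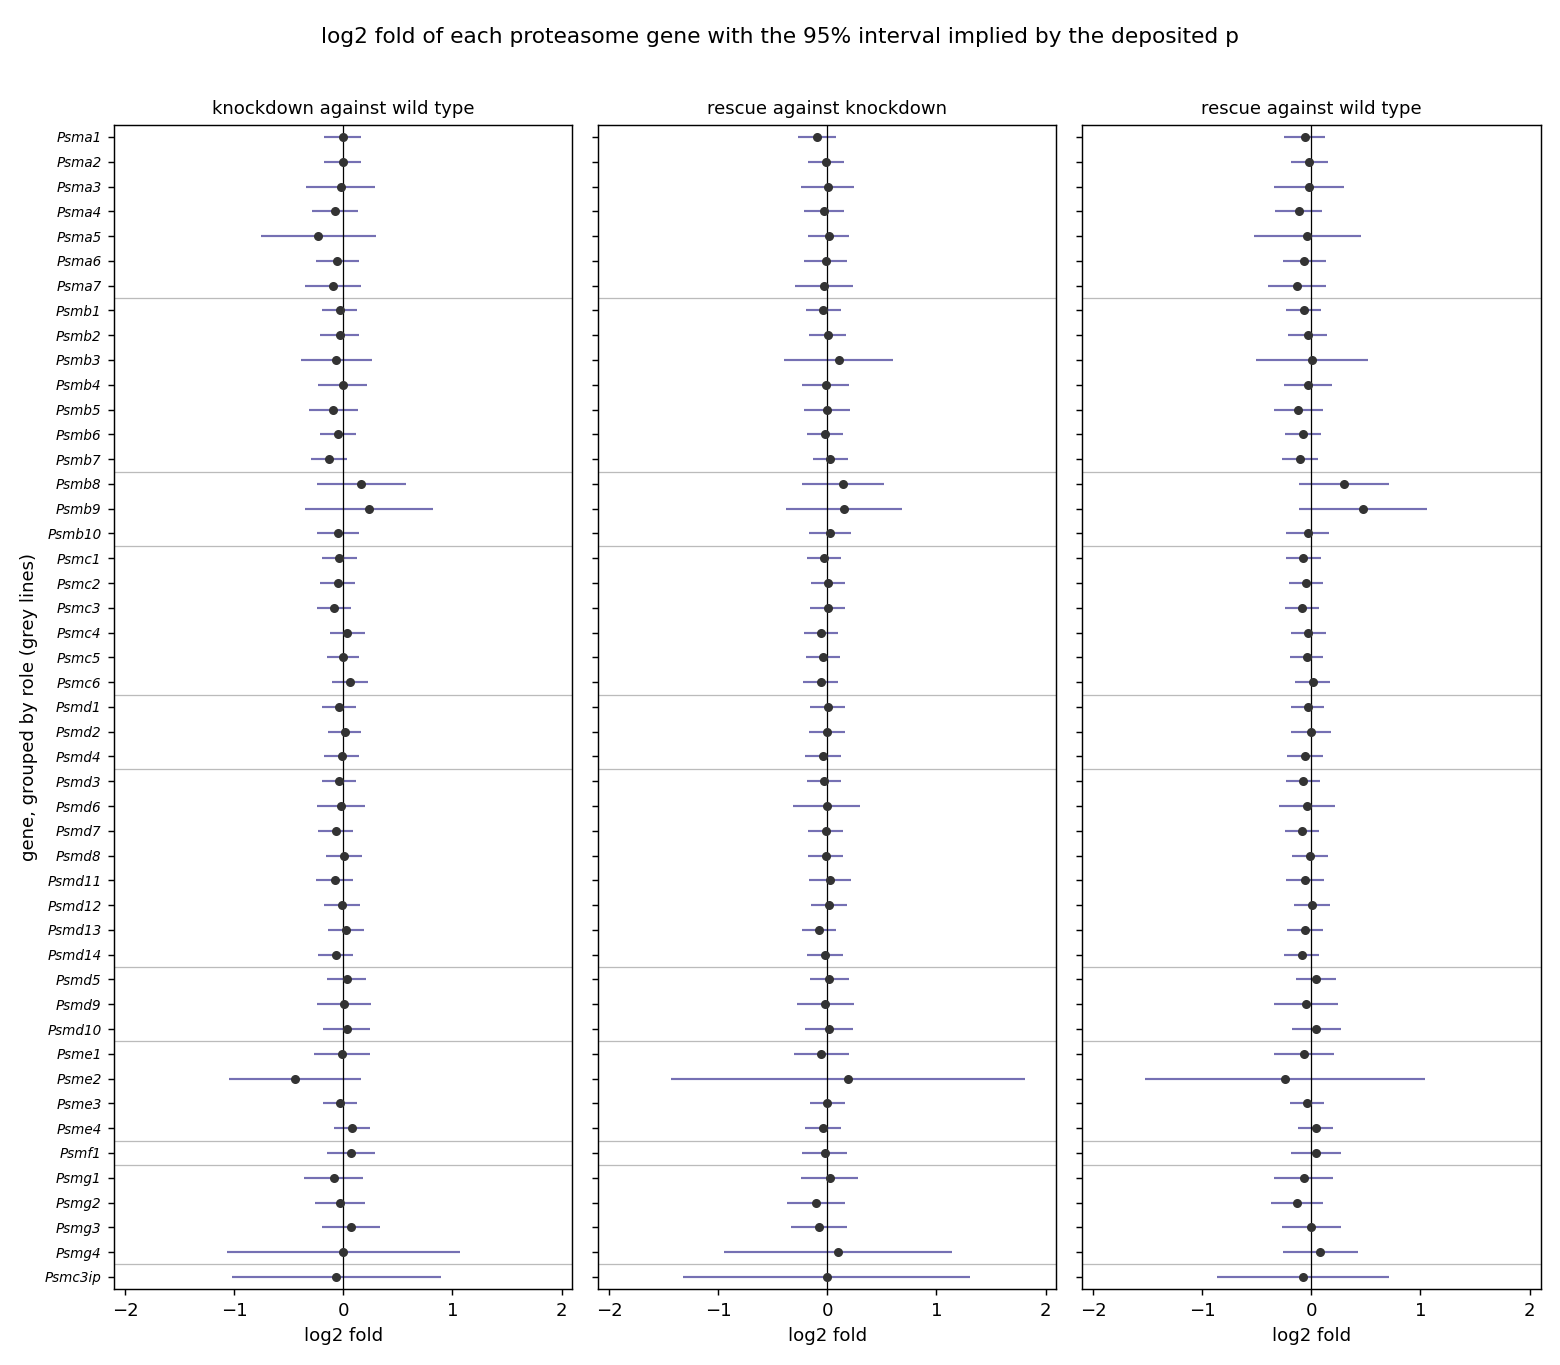
Log2 fold of each gene (points) in the 3 comparisons, with the 95% interval derived from the authors' p-value (bars); the vertical line marks no difference. Every bar crosses 0; bars are narrow for most subunit genes and wide for Psme2 and Psmc3ip, which lie below 2 FPKM, and for Psmg4 in the first and middle panels.

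The 7 alpha subunits, Psma1 to Psma7, form the outer rings and the gate of the core. All 7 folds of knockdown over wild type lay below 0 as deposited, between -0.23 and -0.01, with a median of -0.05, and none was called. The medians of the other comparisons were -0.02 and -0.06. Psma7 stood at 75.4 FPKM in wild type and 70.5 FPKM in knockdown (log2 fold -0.10, interval -0.35 to 0.16). In the table of rescue and wild type it stood at 74.96 and 68.5 FPKM (log2 fold -0.13, interval -0.40 to 0.14). Rescue thus lay below wild type by about as much as knockdown did, within intervals that include 0 both times. Psma4 stood at 32.0 FPKM in wild type and 29.5 FPKM in rescue (log2 fold -0.12, p = 0.287 in the authors' deposited table). Psma2 and Psma3 were the steadiest in this ring: Psma2 lay between 58.1 and 59.3 FPKM over all 6 deposited values, and Psma3 between 7.55 and 7.79 FPKM. Psma6 lay between 67.5 and 71.5 FPKM. The locus listed for its model spans 211835 bases against 34233 bases annotated, and another coding gene, 1110008L16Rik, lies mostly within that locus. In its merged model Psma1 stood at 72.3 FPKM in knockdown and 67.6 FPKM in rescue (log2 fold -0.10).

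Psma5, another alpha subunit, had the largest fold of the ring and the least certain level. It stood at 1.76 FPKM in wild type and 1.499 FPKM in knockdown (log2 fold -0.23, interval -0.76 to 0.30, p = 0.396 in the authors' deposited table). In the table of rescue and knockdown its model was merged with the neighbour Amigo1 and listed at 28.7 FPKM in knockdown and 29.0 FPKM in rescue. The same knockdown animals thus gave 1.499 FPKM in one table and 28.7 FPKM in another, and the difference between the groups is small beside that.

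The 7 constitutive beta subunits, Psmb1 to Psmb7, form the inner rings. Their median fold was -0.05, -0.00 and -0.07 in the 3 comparisons, with 0 called in each. Psmb4, a structural beta subunit, was listed highest of all members: 135 FPKM in wild type and 134 FPKM in knockdown, and 135 FPKM in wild type and 132 FPKM in rescue. The locus listed for its model spans 332737 bases against 2869 bases of the annotated gene (GENCODE M21, chromosome 3, 94884093 to 94886961, minus strand). Mostly within that locus lie 2 other coding genes of that strand, Cgn and Tuft1. Separate models can share a listed locus, as the pair of Psmd6 models in rescue over knockdown does. The Psmb4 model carries its own symbol only, and the part of those neighbours in its level was not tested. Psmb1 stood at 84.2 and 82.2 FPKM in wild type and knockdown, and Psmb2 at 55.1 and 53.8 FPKM. Between knockdown and rescue Psmb1 stood at 82.6 and 80.5 FPKM (log2 fold -0.04). In rescue over knockdown Psmb3 had the largest positive fold of the ring, from 9.23 to 9.91 FPKM (log2 fold 0.10, interval -0.40 to 0.60).

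Of the beta subunits, Psmb5, Psmb6 and Psmb7 carry the cutting sites, of chymotrypsin-like, caspase-like and trypsin-like activity. Psmb7 (chromosome 2, 38588036 to 38644087, minus strand, GRCm38) stood at 92.7 FPKM in wild type and 84.6 FPKM in knockdown, a log2 fold of -0.13 with an SE of 0.08 and an interval from -0.29 to 0.03. In the table of rescue and wild type it stood at 92.2 and 85.7 FPKM (log2 fold -0.11, p = 0.202 in the authors' deposited table). Between knockdown and rescue it stood at 84.8 and 86.5 FPKM (log2 fold 0.03). Both Grin1-altered groups thus lay under wild type without passing the test, and close to each other.
Psmb5 (chromosome 14, 54614119 to 54618022, minus strand) stood at 39.8 FPKM in wild type and 37.3 FPKM in knockdown (log2 fold -0.09). It stood at 41.1 FPKM in wild type and 37.8 FPKM in rescue (log2 fold -0.12, p = 0.286 in the authors' deposited table). Between knockdown and rescue it stood at 33.4 and 33.3 FPKM (log2 fold -0.00), so this table listed knockdown lower than the table against wild type did.
Psmb6 (chromosome 11, 70525367 to 70527858, plus strand) stood at 65.5 and 63.3 FPKM in wild type and knockdown (log2 fold -0.05), at 63.7 and 62.8 FPKM in knockdown and rescue (-0.02), and at 65.6 and 62.2 FPKM in wild type and rescue (-0.08).

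The 14 constitutive core genes, alpha and beta rings together, had folds below 0 in 14 of 14 genes of the first comparison, where 51.2% of all tested models did. They did in 9 of 14 in rescue over knockdown (52.8% of all models) and in 13 of 14 in rescue over wild type (53.4%). The count depends on the scaling: with the FPKM of both groups rescaled to the same total it was 11, 4 and 8 of 14, while centring on the median of all models left 14, 8 and 13. Rescaling moved every fold up by 0.02, 0.02 and 0.04 in the 3 comparisons, which is as large as many of the folds. The summed level of the 14 genes was 778 FPKM in wild type and 751 FPKM in knockdown (96.5%), 802 and 792 FPKM in knockdown and rescue (98.8%), and 797 and 759 FPKM in wild type and rescue (95.3%). The knockdown sum was higher in the table that merges Psma1 and Psma5 with neighbours. Without models that have a near-identical copy in the genome, a merged symbol or another gene within the listed locus, 7, 6 and 6 models were left. Their sums were 483 and 464 FPKM (96.1%), 415 and 412 FPKM (99.3%), and 430 and 408 FPKM (94.8%). The genes share libraries, and each pair of comparisons shares the animals of 1 group, so these counts are descriptions of 3 pairs of groups.

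Under interferon the cutting subunits are replaced by Psmb8 (for Psmb5), Psmb9 (for Psmb6) and Psmb10 (for Psmb7), which gives the immunoproteasome, known for making peptides for antigen presentation. Psmb8 and Psmb9 lie close together on chromosome 17, at 34197721 to 34201454 (plus strand) and 34181987 to 34187764 (minus strand), and Psmb10 on chromosome 8. Psmb8 stood at 1.54 FPKM in wild type and 1.72 FPKM in knockdown (log2 fold 0.16, interval -0.25 to 0.57), and at 1.74 and 1.91 FPKM in knockdown and rescue (0.14, interval -0.23 to 0.52). It stood at 1.55 FPKM in wild type and 1.90 FPKM in rescue (log2 fold 0.30, interval -0.11 to 0.71, p = 0.156 in the authors' deposited table). Psmb9 stood at 0.976 and 1.15 FPKM in wild type and knockdown (log2 fold 0.23, interval -0.36 to 0.82), and at 1.17 and 1.304 FPKM in knockdown and rescue (0.16, interval -0.38 to 0.69). In wild type and rescue it stood at 0.971 and 1.35 FPKM, the largest positive fold among the members (log2 fold 0.47, interval -0.11 to 1.06, p = 0.112 in the authors' deposited table). For both genes wild type was listed lowest and rescue highest, and none of the 6 folds passed the test or had an interval that left out 0.
Psmb10, the most abundant of the 3 inducible subunits here, did not share that order: it stood at 18.7 and 18.1 FPKM in wild type and knockdown (log2 fold -0.05), 18.2 and 18.5 FPKM in knockdown and rescue (0.02), and 18.8 and 18.3 FPKM in wild type and rescue (-0.04).

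Set against their constitutive counterparts, the inducible forms were minor in every group. Psmb8 was at 3.85% of Psmb5 in wild type and 4.61% in knockdown, 5.19% in knockdown and 5.74% in rescue, and 3.76% in wild type and 5.02% in rescue. The same knockdown animals gave 4.61% in one table and 5.19% in another, where Psmb5 was listed lower, and that gap is about as large as the gap between knockdown and rescue. Psmb9 was at 1.49% of Psmb6 in wild type and 1.81% in knockdown, 1.84% and 2.08% in knockdown and rescue, and 1.48% and 2.17% in wild type and rescue. Psmb10 was at 20.2% to 21.5% of Psmb7 in every group and table.

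**Figure D3:**
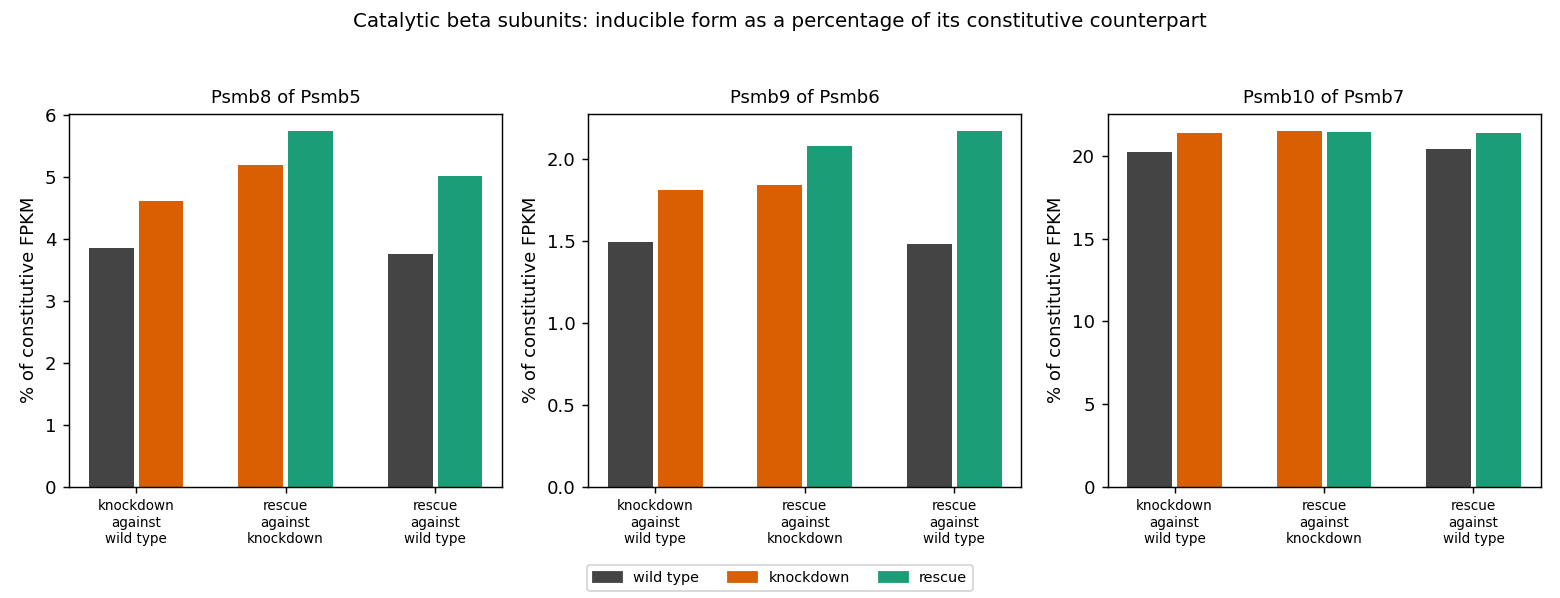
FPKM of each inducible catalytic subunit as a percentage of its constitutive counterpart, per group (colour) in each of the 3 tables; bars start at 0, each panel has its own axis, and each bar is 1 ratio of the authors' group values with no error available. Psmb9 ran from 1.48% to 2.17% of Psmb6 and Psmb8 from 3.76% to 5.74% of Psmb5, while Psmb10 stayed between 20.2% and 21.5% of Psmb7.

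Psmb8 and Psmb9 are also expressed by immune, blood and endothelial cells, so the lists of those cells are given beside them. None of the interferon and antigen presentation models (12, 11 and 12 tested) was called by Cuffdiff or had an unadjusted p under 0.05. Their median fold was 0.06, 0.03 and 0.11, and their summed level 116 and 118 FPKM in wild type and knockdown, 117 and 115 FPKM in knockdown and rescue, and 116 and 115 FPKM in wild type and rescue. The 11 microglia markers had 0 calls and no unadjusted p under 0.05, with sums of 240 to 251 FPKM in all groups and tables. The 8 endothelial markers had 0 calls, 3, 0 and 1 with an unadjusted p under 0.05, and sums of 67.3 and 76.1 FPKM in wild type and knockdown, 76.3 and 74.2 FPKM in knockdown and rescue, and 67.1 and 73.5 FPKM in wild type and rescue. The blood markers came from a list of haemoglobin genes and Alas2, which mark red cells. Of the 5 blood marker models 1, 3 and 3 were called higher in the 3 comparisons, and all 5 folds lay above 0 in each. Blood sums were 99.7 and 115 FPKM, 115 and 165 FPKM, and 99.7 and 163 FPKM. Blood markers thus had the same order of groups as Psmb8 and Psmb9, and their part in these levels was not tested.

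The base of the regulatory particle holds 6 ATPases, Psmc1 to Psmc6, which unfold the substrate. Their median fold was -0.02, -0.03 and -0.05 in the 3 comparisons, with 4 of 6 below 0 in the first. Psmc5 was the highest regulatory particle gene, at 93.8 FPKM in wild type and 93.5 FPKM in knockdown, and at 96.7 and 93.8 FPKM in wild type and rescue. Psmc3 had the largest fold of the ATPases in knockdown over wild type, 74.9 against 70.8 FPKM (log2 fold -0.08, p = 0.299 in the authors' deposited table), and was listed almost the same for rescue over wild type, 74.8 against 70.6 FPKM (log2 fold -0.08). Psmc6 went the other way, with 40.1 FPKM in wild type and 41.9 FPKM in knockdown (log2 fold 0.06, interval -0.10 to 0.23). Psmc4 stood at 48.8 and 50.1 FPKM in wild type and knockdown, and at 50.3 and 48.2 FPKM in knockdown and rescue (log2 fold -0.06).

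The other base subunits receive ubiquitin and hold the particle together. Psmd1, the largest scaffold, stood at 40.5 and 39.4 FPKM in wild type and knockdown (log2 fold -0.04). Psmd2, the other scaffold, stood at 52.2 and 52.7 FPKM in that table and at 63.3 and 63.1 FPKM in the table of wild type and rescue. Psmd4, a ubiquitin receptor, stood at 62.1 and 61.4 FPKM in wild type and knockdown, 59.5 and 57.9 FPKM in knockdown and rescue, and 60.0 and 57.6 FPKM in wild type and rescue (log2 fold -0.06). Wild type was listed highest for Psmd1 in both of its tables and rescue lowest for Psmd4 in both of its tables, and none of these folds passed the test.

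The lid holds 8 members, with medians of -0.03, -0.02 and -0.06. Psmd14, the enzyme that cuts the ubiquitin chain off the substrate, stood at 41.7 and 39.7 FPKM in wild type and knockdown, 39.8 and 39.2 FPKM in knockdown and rescue, and 41.2 and 38.7 FPKM in wild type and rescue (log2 fold -0.09, interval -0.25 to 0.07, p = 0.283 in the authors' deposited table). Psmd7, its partner in the lid, stood at 51.4 and 48.9 FPKM in wild type and knockdown and at 51.0 and 48.05 FPKM in wild type and rescue. Both had wild type higher in each of its tables, with intervals that include 0. Psmd13 stood at 40.9 FPKM in knockdown and 38.8 FPKM in rescue (log2 fold -0.08, p = 0.343 in the authors' deposited table). Psmd11 was the lowest regulatory particle gene, at 14.3 FPKM in wild type and 13.6 FPKM in knockdown (log2 fold -0.08, p = 0.366 in the authors' deposited table). Psmd12, which holds the antioxidant response letters in its promoter as does Psmb5, lay between 35.0 and 35.7 FPKM over all 6 values, and Psmd3 between 51.8 and 54.7 FPKM. Psmd6 had 1 model in the first table (47.8 and 47.2 FPKM in wild type and knockdown) but a pair of tested models in that of knockdown and rescue, at 51.3 and 51.1 FPKM and at 1.69 and 1.73 FPKM.

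The 17 regulatory particle genes together had folds below 0 in 12 of 17, 12 of 18 and 15 of 17 models in the 3 comparisons. Among all tested models 51.2%, 52.8% and 53.4% did. Rescaled to the same total per group, the counts were 9, 8 and 10. Their summed level was 847 and 834 FPKM in wild type and knockdown (98.5%), 850 and 837 FPKM in knockdown and rescue (98.4%), and 869 and 841 FPKM in wild type and rescue (96.8%). The summed level of either particle in the second group of a pair lay between 95.5% and 98.9% of that in the first. Summed over all tested models it was 98.7%, 98.5% and 97.3% in the 3 comparisons, close to the regulatory particle. The difference between the particles was not tested.

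Members outside the particles assemble, activate or inhibit them. The chaperones of the base (Psmd5, Psmd9 and Psmd10) stood at 20.3, 9.84 and 9.74 FPKM in wild type and at 20.8, 9.88 and 9.95 FPKM in knockdown. All 3 of these folds were above 0, at a median of 0.03, and none was called. Psmd5 stood at 19.5 and 19.7 FPKM in knockdown and rescue, and at 19.3 and 19.8 FPKM in wild type and rescue (log2 fold 0.04). Psmd9 stood at 12.5 and 12.3 FPKM in knockdown and rescue, and at 12.6 and 12.2 FPKM in wild type and rescue (log2 fold -0.05). The chaperones of the core (Psmg1 to Psmg4) had medians of -0.01, -0.03 and -0.04. Psmg2 stood at 14.1 and 13.2 FPKM in knockdown and rescue (log2 fold -0.10), and at 14.3 FPKM in wild type and 13.0 FPKM in rescue (log2 fold -0.13, p = 0.283 in the authors' deposited table). Psmg1, listed in a model merged with Brwd1, stood at 42.6 and 40.0 FPKM in wild type and knockdown. Psmg4 stood at 12.7 and 13.4 FPKM in wild type and rescue (log2 fold 0.08, interval -0.26 to 0.42).

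Other activators can take the place of the regulatory particle. Psme4, which encodes the nuclear activator that acts without ATP, stood at 11.9 FPKM in wild type and 12.6 FPKM in knockdown (log2 fold 0.08, p = 0.363 in the authors' deposited table). It stood at 12.6 and 12.2 FPKM in knockdown and rescue, and at 11.5 and 11.9 FPKM in wild type and rescue (log2 fold 0.04). Psme3, of another nuclear activator, lay between 39.1 and 40.3 FPKM in all groups and tables. Psme1, a subunit of the interferon-inducible activator, stood at 16.01 and 15.4 FPKM in knockdown and rescue (log2 fold -0.06) and at 16.2 and 15.5 FPKM in wild type and rescue. Its partner Psme2 was listed under 1 FPKM in 5 of 6 values, at 0.883 FPKM in wild type and 0.65 FPKM in knockdown (log2 fold -0.44, interval -1.05 to 0.16, p = 0.151 in the authors' deposited table). This was the most negative fold among the members. In the same table Psme1 stood at 16.3 FPKM in wild type. Psmf1, an inhibitor of the core, stood at 8.04 and 8.44 FPKM in wild type and knockdown (log2 fold 0.07), at 8.80 and 8.65 FPKM in knockdown and rescue, and at 8.23 and 8.46 FPKM in wild type and rescue. Psmc3ip stood at 1.67 and 1.60 FPKM in wild type and knockdown (log2 fold -0.06), and at 1.67 and 1.58 FPKM in wild type and rescue (log2 fold -0.08).

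Levels between genes differed far more than levels between groups. Within the constitutive core the low levels went with near-identical copies in the genome, a pattern looked for after the levels were seen that did not hold over all 47 genes: Psmb8, Psmb9 and Psmf1 have no such copy and were low as well. Of the 47 genes 10 have at least 1 other GENCODE M21 transcript that matches at least 50% of their coding sequence at 95% identity or more. Most of the copies are annotated as processed pseudogenes, which arise when an mRNA is copied back into the genome. Among the 14 constitutive core genes, Psma3, Psma4, Psma5, Psmb3 and Psmb5 have such copies, and in each table these 5 were the 5 lowest. In wild type they stood at 1.76 to 39.8 FPKM, with a median of 10.2 FPKM, against 50.7 to 135 FPKM, with a median of 71.5 FPKM, for the 9 genes without a copy. The ranges did not overlap in the other tables either: 7.61 to 33.4 FPKM against 54.0 to 135 FPKM in knockdown, and 2.18 to 41.1 FPKM against 54.8 to 135 FPKM in wild type. Merged models are among these values: Psma5 with Amigo1 in knockdown (28.7 FPKM), and Psma1 with Copb1 in knockdown (72.3 FPKM) and wild type (67.0 FPKM). Their levels are not those of Psma5 and Psma1 alone. Alpha and beta subunits enter each core in equal numbers, but the mRNAs need not be equal, and what the authors' alignment and counting did with reads that match several places is not given in the sources used here.
In the regulatory particle Psmd11, Psmc1 and Psmd2 have copies and stood at 14.3 to 52.2 FPKM in wild type, and the 14 without stood at 35.5 to 93.8 FPKM, so only Psmd11 fell below the others. The extreme case is Psma5, whose coding sequence matches 2 processed pseudogenes over 100% of its length, Gm8394 at 98.9% and Gm12989 at 97.5% identity. Psme2 matches Psme2b, annotated as protein coding, at 99.3% identity over 100% of its coding sequence. The levels of these 10 genes are therefore uncertain, and the part of the copies in them was not tested.

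Each group appears in a pair of tables, which were assembled and normalised separately, so the same animals are measured under a pair of gene models. For 13 of the 47 genes the largest difference between tables of 1 group exceeded the largest difference between groups within a table. This was so in 6 of the 10 genes with a near-identical copy and in 7 of the 37 without. The median over the genes was 0.02 on the log2 scale between tables and 0.07 between groups. For the genes with a copy it was 0.18 between tables and 0.09 between groups. Psma1 stood at 50.7 FPKM in wild type in one table and at 67.0 FPKM in the other, where it was merged with Copb1. Psmd6 stood at 47.8 and 66.8 FPKM in wild type, Psmd9 at 9.84 and 12.6 FPKM, and Psmd2 at 52.2 and 63.3 FPKM. Differences between tables were over 0.1 in 10 genes: these 4, Psma5, Psme2 (0.21), Psmd11 (0.20), Psma4 (0.18), Psmb5 (0.18) and Psmd8 (0.13). Levels of these 10 genes are to be compared within a table only.

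**Figure D4:**
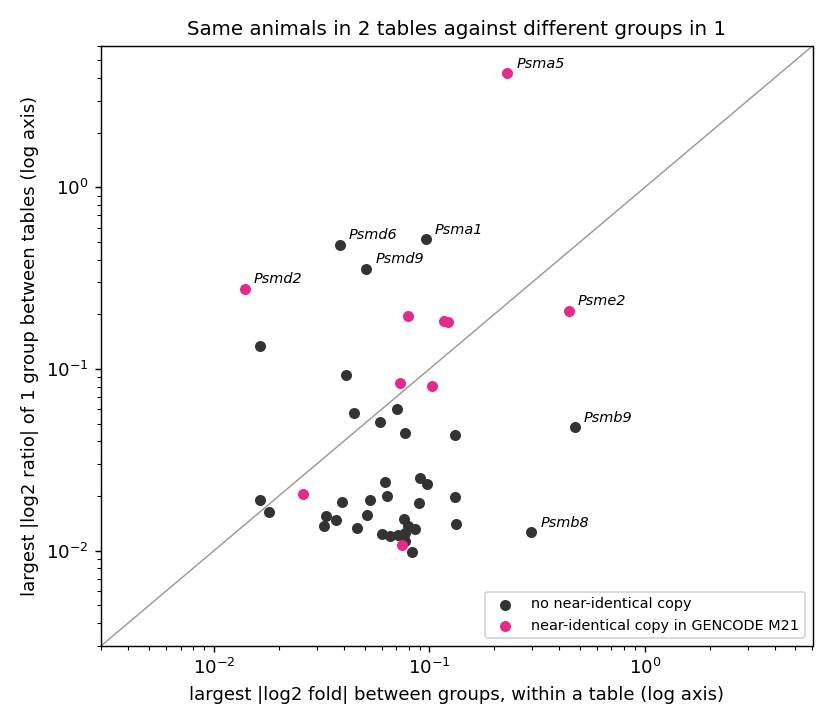
For each gene, the largest absolute log2 ratio of the same group between tables (vertical, log axis) against the largest absolute log2 fold between groups within a table (horizontal, log axis); pink marks the 10 genes with a near-identical copy, and the line marks equality. Points above the line are the 13 genes for which the table mattered more than the group, Psma5 highest; Psmb8 and Psmb9 lie far below it.

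Other genes of the pathway were counted over a list of receptors, shuttles, deubiquitinases, assembly and transcription factors and ubiquitin genes. None of the 30 models tested per table was called by Cuffdiff, and 1, 0 and 0 had an unadjusted p under 0.05, at medians of -0.01, 0.01 and -0.01. The exception was Nfe2l2, a transcription factor of the response to oxidative stress, at 4.67 FPKM in wild type and 5.56 FPKM in knockdown (log2 fold 0.25, p = 0.0222 and q = 0.409 in the authors' deposited table). Between knockdown and rescue it stood at 5.56 and 5.03 FPKM (p = 0.180 in the authors' deposited table), and no other gene of the list had a smaller p there. Adrm1, a ubiquitin receptor of the base whose symbol lies outside the Psm families, stood at 3.12 and 2.67 FPKM in wild type and rescue (log2 fold -0.23, p = 0.181 in the authors' deposited table). Between knockdown and rescue Adrm1 stood at 3.04 and 2.71 FPKM (p = 0.276 in the authors' deposited table). Zfand5, an activator of the proteasome, stood at 29.5 and 27.6 FPKM in wild type and rescue (log2 fold -0.09).

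Some marker genes of brain regions and cell types differed in level between groups, which cannot tell tissue make-up from RNA per cell. Neuron markers summed to 4273 and 3923 FPKM in wild type and knockdown (91.8%), 3936 and 4023 FPKM in knockdown and rescue (102%), and 4254 and 3985 FPKM in wild type and rescue (93.7%). Their folds lay below 0 in 6 of 8, 3 of 8 and 7 of 7 models, at medians of -0.10, 0.04 and -0.07, with 0 calls and 2, 0 and 1 unadjusted p under 0.05. The neuron sums and the constitutive core sums were thus both lower in knockdown and in rescue than in wild type. So were the sums over all tested models, at 98.7% of wild type in knockdown and 97.3% in rescue. Of the olfactory bulb marker models 7 of 8 were called higher in knockdown over wild type, with folds above 0 in 8 of 8. In rescue over knockdown 7 of 8 were called lower, with folds below 0 in 8 of 8. In rescue over wild type 6 of 7 were called higher, with folds above 0 in 7 of 7. Their sums were 36.1 and 98.8 FPKM, 97.9 and 58.0 FPKM, and 36.2 and 57.5 FPKM. Of the striatal marker models 5 of 7, 0 of 6 and 6 of 7 were called lower. Folds of striatal markers lay below 0 in 7 of 7, 5 of 6 and 7 of 7. Striatal sums were 99.98 and 77.4 FPKM, 76.6 and 71.5 FPKM, and 99.5 and 71.2 FPKM. Of the 6 astrocyte markers 2 were called higher in knockdown over wild type, with folds above 0 in 6 of 6. In rescue over knockdown 1 was called lower, with folds below 0 in 6 of 6. In rescue over wild type 1 was called higher, with folds above 0 in 3 of 6. Oligodendrocyte markers had 0 calls, with 0, 1 and 1 unadjusted p under 0.05. Oligodendrocyte sums were 1090 and 1108 FPKM in wild type and knockdown (102%), 1115 and 1031 FPKM in knockdown and rescue (92.5%), and 1091 and 1023 FPKM in wild type and rescue (93.8%). The part of these markers' cells in the proteasome levels was not tested.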

How the data were processed

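Per the labels, RNA-seq was run on 12 cortex samples. Cuffdiff 2.2.1.3, Cufflinks 2.2.1.0, TopHat2 2.1.0, TopHat and FastQC 0.65 were used with the builds GRCm38 and mm10, per the submitters' processing notes. Per the file headers, each of the 3 deposited tables gives an FPKM per group, a test statistic (a score), a p-value and a q-value per gene model, all from the authors' Cuffdiff runs. The deposited fold column was not used: log2 folds were recomputed from the authors' FPKM values without a pseudocount. The tables hold no value per animal, so Cuffdiff's test was taken as deposited and depth is unknown. Standard errors are the absolute fold over the normal deviate of the p; they ignore the rounding of p and grow unstable for folds near 0.

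The members, role lists, pathway list and marker lists were chosen with earlier results of these data known. Named were the 6 catalytic subunits, the member with the largest fold and that with the smallest p of each role and comparison among models of at least 1 FPKM, the highest and lowest of each particle, and of the pathway list the genes with the smallest p; other genes were chosen after their values were seen. 1 pathway gene among these is not reported here. All 47 genes matched GENCODE M21 by symbol; copies were sought with blastn 2.17.0. Promoters are RefSeq's. Python 3.11.15, pandas 2.3.3 and scipy 1.17.1 were used, and the scripts were tested on simulated data. Alternatives were stricter q, recomputed q, single-symbol models, 1 model per gene, other scalings, a pseudocount of 1 and a minimum of 1 FPKM.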

Additional observations from a re-analysis of the deposited data

How the results depend on the processing

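The count of called members was 0 in each comparison under all 5 alternatives run, 15 values in all. The 6 medians of the particles, each under 7 alternatives, moved by no more than 0.05 on the log2 scale in any of 42 values. They ran from -0.05 to -0.03, -0.00 to 0.02 and -0.04 to 0.00 for the core particle in the 3 comparisons, and from -0.02 to -0.00, -0.02 to 0.01 and -0.05 to -0.01 for the regulatory particle. Rescaling both groups to the same total turned the sign of the core median in the comparisons with rescue, to 0.02 and 0.00, and of the regulatory median in rescue over knockdown, to 0.01. The core median of rescue over knockdown also turned just above 0 with centred folds (0.0014) and without uncertain models (0.0038). Leaving out models with a near-identical copy, a merged symbol or another gene within the listed locus was chosen after seeing the data. No paired analysis was possible because the tables hold 1 value per group; for the same reason no animal was left out. Unknown depth limits every statement on levels under 2 FPKM.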
